A study of Mus musculus with 9 samples.

Results

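The genes described here encode subunits of PRC1.6, a Polycomb complex, and the histone methyltransferases that work beside it to keep germline genes silent in mouse embryonic stem cells. They were chosen by name, as E2f6, Pcgf6, L3mbtl2, Mga, Max, Rybp, Ring1, Rnf2, Setdb1 and Ehmt2, each read from the brightest probe set that carries only that symbol. All 10 were measured, among 19938 genes in all. Total RNA of R1E cells, which are mouse embryonic stem cells, was put on 9 Affymetrix arrays. The cells had been grown in serum with leukemia inhibitory factor, a cytokine that keeps them undifferentiated, and received no drug. They were transduced with 1 of 2 hairpins against Apela (shApela_1 and shApela_2) or with a luciferase hairpin (shLuc) as the control, and each group had 3 arrays. All groups are of 1 cell line, and the sources used here give neither the hairpins' sequences nor the time after transduction. Nothing states that the repeats were separate cultures, so the tests rest on a spread between arrays that may be technical. Apela encodes a secreted peptide, and the study asked about its RNA in a feedback loop on p53-driven cell death.

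PRC1.6 is brought to DNA by sequence-specific subunits. E2F6 is a repressive member of the E2F family, MGA carries a T-box domain and a helix-loop-helix domain, and MAX is the partner with which MGA binds E-box motifs. PCGF6 sets this complex apart from other Polycomb complexes, RYBP and L3MBTL2 are further subunits, and RING1 and RNF2 are alternative ubiquitin ligases for histone H2A. SETDB1 and EHMT2 (also called G9a) methylate lysine 9 of histone H3. Mouse embryonic stem cells that lack MAX or PCGF6 are known to switch on meiotic genes.

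Apela fell with both hairpins, which checks the labels of hairpin against control. It fell alike in both (difference 0.02), so it cannot check which hairpin is which. Its log2 level was 9.76, 9.68 and 9.65 in shApela_1 and 9.79, 9.79 and 9.56 in shApela_2, against 11.40, 11.31 and 11.19 in shLuc, so that 32.9% and 33.4% of the control signal remained (limma, adjusted p = 0.000197 and 0.000219). The third shApela_2 array stood apart, with a median log2 level of 7.12 beside 7.03 to 7.07 on the other arrays. All 8 pluripotency markers lay above the median of the table (7.06), and their mean was between 11.77 and 11.80 on the shApela_1 arrays and between 11.75 and 11.85 on the shApela_2 arrays, against 11.77 to 11.80 in shLuc.

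No gene of the repressor group passed the test with either hairpin. In limma's fit of all 9 arrays, adjusted by Benjamini-Hochberg over all genes, 0 of the 10 passed with shApela_1 (0.336% of all genes did), 0 with shApela_2 (0.0150%) and 0 with the mean of both hairpins (0.0150%). At an unadjusted p under 0.05 the count was also 0 in each, beside 7.69% of all genes with shApela_1, 5.77% with shApela_2 and 4.58% with both. With the replicate number as a block, Mga had an unadjusted p of 0.0304 with shApela_1 (adjusted p = 0.323) and L3mbtl2 one of 0.0052 with shApela_2 (adjusted p = 0.405), and 0 of the 10 passed after adjustment. Same-numbered arrays of shApela_2 and shLuc were not taken as pairs, which limits the L3mbtl2 value. Log2 changes of the 10 ran from -0.10 to 0.08 with shApela_1 and from -0.08 to 0.16 with shApela_2, and for the mean of both hairpins from -0.05 to 0.05. Their median was -0.02 with shApela_1, where that of all genes was 0.01, and -0.00 with shApela_2, where that of all genes was 0.02. With shApela_1, 4 members were higher and 6 lower than in shLuc, and with shApela_2, 5 were higher and 5 lower. For 9 of the 10 genes the 95% intervals held no change above 1.22-fold with shApela_1 and 1.21-fold with shApela_2. L3mbtl2 was the exception, with an interval that reached a 1.30-fold fall with shApela_1 and a 1.37-fold rise with shApela_2. The arrays of a hairpin lay wholly apart from those of shLuc for 0 of the 10, beside 13.7% of all genes with shApela_1, 10.3% with shApela_2 and 2.17% with both hairpins.

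**Figure D1:**
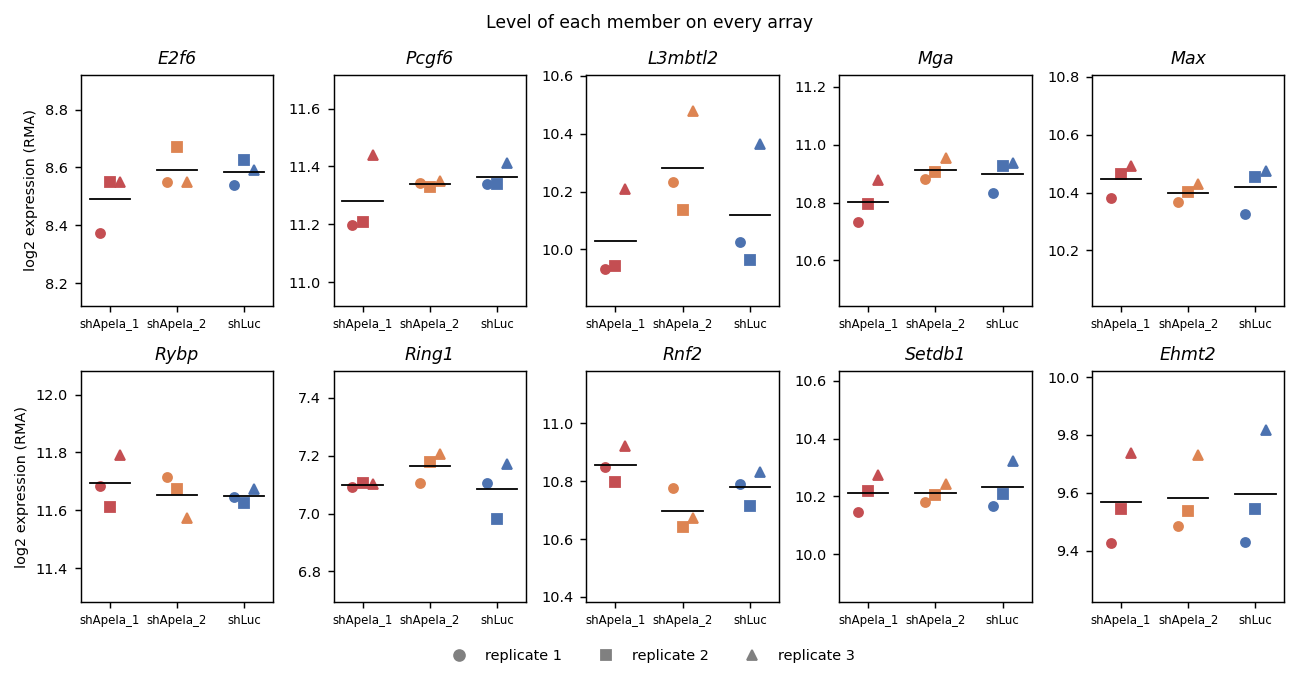
Log2 expression (RMA) of each of the 10 genes on every array, in its own panel with an axis spanning 0.8 log2 units, for shApela_1, shApela_2 and shLuc; symbols give the replicate number and bars the mean of 3 arrays. The arrays of each hairpin overlap those of shLuc in every panel, and the array numbered 3 is the highest in all 3 groups for 6 of the 10 genes.

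The promoters of E2f6 and Max are shown because each holds a motif of the kind its own product is known to read. The windows come from RefSeq (build GRCm38.p6) and run 5′ to 3′ along the gene, with 250 bases before an annotated start and 50 from it onwards. That of E2f6 is chr12:16810715-16811014 on the plus strand and that of Max is chr12:76962199-76962498 on the minus strand. Capitals mark matches to the E2F motif TCCCGC, the E-box CACGTG and the T-box motif TCACACCT, searched on both strands.
E2f6: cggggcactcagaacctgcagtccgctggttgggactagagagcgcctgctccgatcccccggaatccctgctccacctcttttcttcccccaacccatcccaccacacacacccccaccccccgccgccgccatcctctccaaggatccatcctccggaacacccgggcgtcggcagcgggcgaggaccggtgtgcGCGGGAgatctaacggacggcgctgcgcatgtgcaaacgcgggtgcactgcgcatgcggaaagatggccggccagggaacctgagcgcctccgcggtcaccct
Max: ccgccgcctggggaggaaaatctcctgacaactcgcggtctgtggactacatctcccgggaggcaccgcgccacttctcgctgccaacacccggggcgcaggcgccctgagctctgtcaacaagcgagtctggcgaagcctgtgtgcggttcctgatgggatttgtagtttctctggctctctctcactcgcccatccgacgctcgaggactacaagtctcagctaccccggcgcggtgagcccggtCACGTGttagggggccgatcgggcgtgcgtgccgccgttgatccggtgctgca
In the E2f6 window the E2F motif stood on the opposite strand (GCGGGA), at -53 to -48 from the start. In the Max window the E-box spanned the start of that window, at -3 to 3. Both annotated genes reach further upstream than the start used, E2f6 to 16810909 and Max to 76962323. The positions hold for the start used alone. Windows were found for 9 of the 10 genes. The E2F motif was present for 3 of them and in 20.0% of all 32851 windows. Besides E2f6 these were Rnf2, at -228 to -223 and 31 to 36, and Ehmt2, at 38 to 43. The E-box was present for Max and Ehmt2, and in 7.15% of all windows. The T-box motif was present for 0 of the 9, and in 1.28% of all windows. A match describes the letters and not binding.

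Among the DNA-binding subunits, E2f6 measured 8.37, 8.55 and 8.55 on the log2 scale in shApela_1 and 8.55, 8.67 and 8.55 in shApela_2, against 8.54, 8.63 and 8.59 in shLuc. The first shApela_1 array was the lowest of the 9, and the other 8 lay together. The change was -0.09 with shApela_1 (SE 0.06, 95% interval from -0.23 to 0.04, limma's adjusted p = 0.92) and 0.01 with shApela_2 (interval from -0.13 to 0.14, adjusted p = 0.982). Mga, whose product pairs with MAX, had the smallest p of the 10 with shApela_1. It measured 10.73, 10.80 and 10.88 in shApela_1 and 10.88, 10.91 and 10.95 in shApela_2, against 10.83, 10.93 and 10.94 in shLuc. Each shApela_1 array of Mga, as of E2f6, lay below the shLuc array of the same number, while the groups as a whole overlapped. The change of Mga was -0.10 with shApela_1 (SE 0.05, interval from -0.21 to 0.02, adjusted p = 0.767) and 0.01 with shApela_2 (interval from -0.10 to 0.13, adjusted p = 0.933).

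Max had the smallest range of the 10 over all arrays, 0.165. It measured 10.38, 10.46 and 10.49 in shApela_1 and 10.37, 10.40 and 10.43 in shApela_2, against 10.33, 10.45 and 10.48 in shLuc. The 3 groups overlapped throughout. The change was 0.03 with shApela_1 (interval from -0.09 to 0.14) and -0.02 with shApela_2 (interval from -0.14 to 0.10). MAX also serves the MYC proteins and their MXD antagonists, and 0 of 8 measured genes of that group passed with either hairpin, where 0.336% of all genes passed with shApela_1 and 0.0150% with shApela_2. Mnt, a repressive MAX partner, had the smallest p of them with shApela_1 (-0.12, limma's adjusted p = 0.525), and Mxd4 with shApela_2 (0.13, adjusted p = 0.68).

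Pcgf6, which defines the complex, measured 11.20, 11.21 and 11.44 in shApela_1 and 11.34, 11.33 and 11.35 in shApela_2, against 11.34, 11.34 and 11.41 in shLuc. The first and second shApela_1 arrays were the lowest of the 9 and the third was the highest. The mean change was -0.08 with shApela_1 (SE 0.06, interval from -0.23 to 0.06, limma's adjusted p = 1) and -0.02 with shApela_2 (interval from -0.17 to 0.12, adjusted p = 0.913). Rybp, which binds the RING1 and RNF2 ligases, measured 11.68, 11.61 and 11.79 in shApela_1 and 11.72, 11.67 and 11.57 in shApela_2, against 11.65, 11.62 and 11.67 in shLuc. The shLuc arrays lay inside the range of each hairpin. The changes of Rybp were 0.05 with shApela_1 (interval from -0.08 to 0.17) and 0.01 with shApela_2 (interval from -0.12 to 0.13). Rybp was the 1 member with a further probe set, on which the changes were 0.03 with shApela_1 and 0.01 with shApela_2.

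L3mbtl2, an MBT-domain protein of the complex, had the widest range of the 10, 0.544 over the 9 arrays. It measured 9.93, 9.94 and 10.21 in shApela_1 and 10.23, 10.13 and 10.48 in shApela_2, against 10.03, 9.96 and 10.36 in shLuc. Each group held 1 high array, the third. The change was -0.09 with shApela_1 (SE 0.13, interval from -0.38 to 0.20, limma's adjusted p = 1) and 0.16 with shApela_2 (SE 0.13, interval from -0.13 to 0.46, adjusted p = 0.694). Between arrays of the same number, L3mbtl2 in shApela_1 differed from shLuc by -0.09, -0.02 and -0.16, and in shApela_2 by 0.21, 0.17 and 0.11. Each hairpin thus kept 1 sign at all 3 numbers, as also held for Rnf2, and with the number as a block the SE was 0.04. Same-numbered arrays of shApela_2 and shLuc were not taken as pairs, so the shApela_2 differences are a description only.

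Of the ubiquitin ligases, Ring1 lay near the median of the table, and Rnf2 well above it. Ring1 measured 7.09, 7.11 and 7.10 in shApela_1 and 7.11, 7.18 and 7.21 in shApela_2, against 7.11, 6.98 and 7.17 in shLuc. The shLuc arrays were the most spread of the 3 groups and overlapped both hairpins. The change was 0.01 with shApela_1 (interval from -0.11 to 0.13) and 0.08 with shApela_2 (interval from -0.04 to 0.20). Rnf2 measured 10.85, 10.80 and 10.92 in shApela_1 and 10.78, 10.64 and 10.67 in shApela_2, against 10.79, 10.72 and 10.83 in shLuc. The control mean lay between those of the hairpins, and its arrays overlapped both. Between arrays of the same number, Rnf2 in shApela_1 differed from shLuc by 0.06, 0.08 and 0.09, and in shApela_2 by -0.01, -0.07 and -0.16. The change of Rnf2 was 0.08 with shApela_1 (SE 0.05, interval from -0.04 to 0.20, limma's adjusted p = 0.962) and -0.08 with shApela_2 (SE 0.05, interval from -0.20 to 0.04, adjusted p = 0.68).

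Setdb1, which trimethylates lysine 9 of histone H3, measured 10.15, 10.22 and 10.27 in shApela_1 and 10.18, 10.21 and 10.24 in shApela_2, against 10.17, 10.21 and 10.32 in shLuc. The groups overlapped, and the change was -0.02 with each hairpin (both intervals from -0.14 to 0.10). Ehmt2, which mono- and dimethylates the same lysine, measured 9.43, 9.54 and 9.74 in shApela_1 and 9.48, 9.54 and 9.73 in shApela_2, against 9.43, 9.54 and 9.82 in shLuc. Its arrays followed the same order in each group, so the means lay close although the arrays of a group did not. The change of Ehmt2 was -0.03 with shApela_1 (SE 0.12, interval from -0.29 to 0.24) and -0.01 with shApela_2 (SE 0.12, interval from -0.28 to 0.25).

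**Figure D2:**
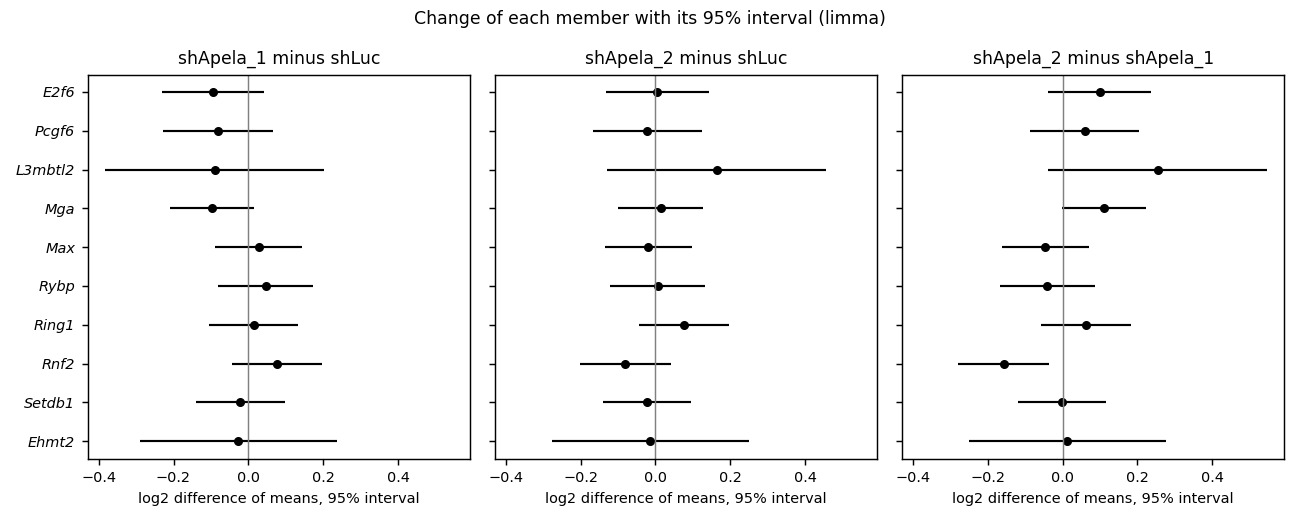
Difference of log2 means for each of the 10 genes (down the page) in shApela_1 minus shLuc, shApela_2 minus shLuc and shApela_2 minus shApela_1 (panels); points are limma's estimates and lines their 95% intervals. Every interval includes 0 in the panels against shLuc, and that of Rnf2 lies below 0 between the hairpins.

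The hairpins were next compared with each other. In limma's fit of all arrays 0 of the 10 genes differed (0.948% of all genes did, 0.356% higher and 0.592% lower in shApela_2), and 1, Rnf2, had an unadjusted p under 0.05, beside 12.9% of all genes. The log2 differences ran from -0.16 to 0.25. The groups did not overlap for 3 of the 10, beside 17.6% of all genes. Mga and Ring1 were the higher ones (7.49% of all genes), by 0.11 for Mga (interval from -0.00 to 0.22, adjusted p = 0.395) and by 0.06 for Ring1 (adjusted p = 0.575). Rnf2 was the lower one (10.1% of all genes), at -0.16 (interval from -0.28 to -0.04, unadjusted p = 0.0169, adjusted p = 0.262).

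L3mbtl2 passed between the hairpins once the replicate number entered limma's fit as a block. It was higher in shApela_2 than in shApela_1 by 0.30, 0.19 and 0.27 at numbers 1, 2 and 3, a mean of 0.25. Without the block its SE was 0.13 and its adjusted p 0.447; with the block the SE was 0.04 and the adjusted p 0.0263, in a fit that called 653 genes where the one without it called 189. With the block but without the third shApela_2 array the difference was 0.26 (adjusted p = 0.0172), in a fit that called 1200 genes. L3mbtl2 did not pass against shLuc with the block (adjusted p = 0.463 for shApela_1 and 0.405 for shApela_2). With the block, the adjusted p between the hairpins was 0.117 for Rnf2 and 0.167 for Mga. That block fits 1 shift per number across all 3 groups, shLuc included, which limits the values between the hairpins too.

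The spread of some repressor genes went with the replicate number. With the number as a block the SE of a change was 0.04 where it had been 0.13 for L3mbtl2 and 0.12 for Ehmt2, whereas it was 0.06 with and without the block for Rybp and 0.05 for Ring1. In 6 of the 10 (Pcgf6, L3mbtl2, Mga, Max, Setdb1 and Ehmt2) the third array was the highest of its group in all 3 groups, as it was for 13.5% of all genes, and in 0 of the 10 was it the lowest in all 3, beside 11.1% of all genes. This count was chosen after the values were seen, and the labels do not say what the numbers stand for. For Ehmt2 the third arrays measured at least 9.73, and every first and second array at most 9.54. The mean of the third arrays exceeded that of the others by 0.31 for L3mbtl2 and 0.27 for Ehmt2, and by 0.07 for Max up to 0.11 for Pcgf6 among the others of these 6. The SD within groups ran from 0.06 for Mga to 0.18 for L3mbtl2, with a median of 0.07, where that of all genes was 0.08.

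**Figure D3:**
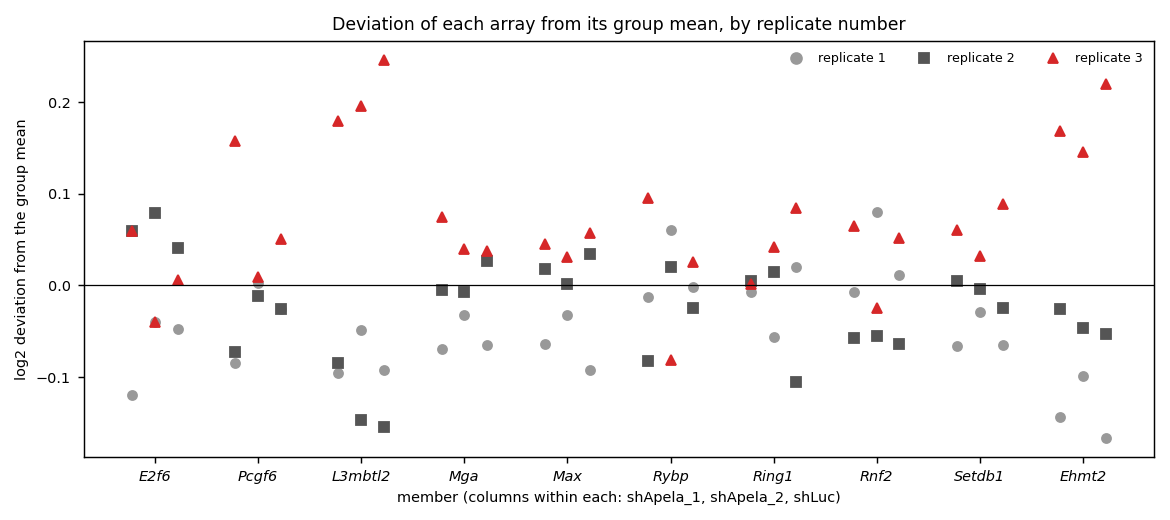
Deviation of each array from its group mean (log2) for the 10 genes; within each gene the columns are shApela_1, shApela_2 and shLuc, and symbol and colour give the replicate number. The arrays numbered 3 lie on top in every column of Pcgf6, L3mbtl2, Mga, Max, Setdb1 and Ehmt2.

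E2f6 and Pcgf6 were also set against every other gene by Pearson correlation over the 9 arrays, a description in which all points share the same arrays. The genes most like E2f6 were Pitpnc1 (r = 0.976), Pigg (0.974) and Anxa2 (0.966), and among the other members Mga (0.769). Those most like Pcgf6 were Gm6815 (0.976), Atp5pb (0.964) and Noxred1 (0.962), and among the other members again Mga (0.764). E2f6 and Pcgf6 themselves had an r of 0.526.

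Related genes were read in the same fit. The count against shLuc was 0 with each hairpin (0.336% of all genes with shApela_1 and 0.0150% with shApela_2, at which shares a list of this size would hold 0 or few calls) for 9 other subunits and partners of PRC1.6, 19 measured genes of other PRC1 complexes, 11 of PRC2, 12 measured genes of histone H3 lysine 9 methylation and HP1, and 10 other E2F and pocket protein genes. The smallest adjusted p among them was that of E2f2, an activating E2F, with shApela_1 (0.29, limma's adjusted p = 0.0847), which passed in 3 of 19 alternatives, with array weights (0.0114), without the third shApela_2 array (0.0394) and without that array with the block (0.0163). Cbx5, an HP1 gene, measured -0.42 with shApela_1 (adjusted p = 0.239) and passed in 3 of 19 as well (array weights 0.0223, arrays numbered 1 and 2 alone 0.0464, block without the third shApela_2 array 0.0112). Bcor (0.0215), Phf19 (0.0214) and Aebp2 (0.0487) passed with shApela_1 in the last of these settings alone. Among all genes with shApela_1, array weights called 688, leaving out the third shApela_2 array 146, and arrays numbered 1 and 2 alone 249. The block without the third shApela_2 array called 1376. That block setting and arrays numbered 1 and 2 alone were chosen after seeing the data. Between the hairpins 0 passed in the fit of all arrays without the block (0.948% of all genes did), and with the block Yaf2, the paralog of RYBP, did (-0.33, adjusted p = 0.045). Yaf2 measured 8.70, 8.68 and 8.32 in shApela_2, against 9.02, 8.88 and 8.79 in shApela_1. Those groups did not overlap, and Rybp itself differed by -0.04 (interval from -0.17 to 0.09). The others named by the same rule that passed with the block were Cbx5 (0.48, adjusted p = 0.0285), Phf19 (0.39, 0.0221) and Rbbp7 (-0.18, 0.0469) of PRC2, and Bcor (0.26, 0.0419) and Scmh1 (-0.23, 0.0425) of PRC1. That fit with the block called 653 of all genes, and its 1 shift per number across the groups limits these values as well. Array weights, without the block, also gave calls between the hairpins for Cbx5 (0.00391), Atf7ip (0.00415), Rbbp7 (0.00697), E2f2 (0.00888), E2f3 (0.0168), Dcaf7 (0.0307), Scmh1 (0.0332), Yaf2 (0.0351) and Mnt (0.0404), in a fit that called 1446 genes. Without the block, Cbx5 further passed without the third shApela_1 array (0.0292) and on arrays numbered 1 and 2 alone (0.0234), and Atf7ip without the third shApela_2 array (0.0478). Those fits called 81, 434 and 222 genes in that order.

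Germline genes, the class that the repressors are known to hold silent, were set beside them. In shLuc, however, Mael (mean 10.36), Tdrd12 (10.29) and Smc1b (8.21) lay above the median of the table (7.06). These 3 were picked because they fell with shApela_1, so a signal in shLuc follows from that choice. The median is not a floor of detection, and control levels of the other germline genes are not given here. Of 45 germline genes measured, 3 fell with shApela_1 (0.196% of all genes did) and 0 rose (0.140%), and 0 passed with shApela_2. With the mean of both hairpins 0 passed (0.0150% of all genes did), while 35 of the 45 were lower (40.7% of all genes were). In that comparison 15 had an unadjusted p under 0.05 in limma, beside 4.58% of all genes. With shApela_1 alone 39 of the 45 were lower and 20 had such a p (45.5% and 7.69% of all genes). With shApela_2 alone 28 were lower and 5 had such a p (42.5% and 5.77% of all genes). Smc1b, a cohesin subunit of meiosis, measured 7.12, 7.27 and 7.21 in shApela_1 and 8.50, 8.92 and 8.20 in shApela_2, against 8.11, 8.40 and 8.13 in shLuc. Mael, a germline factor of transposon silencing, measured 9.89, 9.80 and 9.79 in shApela_1 and 10.32, 10.28 and 10.22 in shApela_2, against 10.34, 10.34 and 10.40 in shLuc. For both, the shApela_1 arrays lay below every other array. The same held for Tdrd12, a Tudor protein of the piRNA pathway, which measured 9.63, 9.60 and 9.87 in shApela_1 and 10.37, 10.43 and 10.42 in shApela_2, against 10.21, 10.26 and 10.40 in shLuc. The median log2 change of the list was -0.14 with shApela_1 and -0.04 with shApela_2, and its groups lay apart downward for 21 genes with shApela_1 (5.61% of all genes) and 6 with shApela_2 (4.65%). The arrays of both hairpins together lay below every shLuc array for 4 genes of the list (145 of all 19938), among them Mael and Ddx4. Ddx4 changed by -0.24 with shApela_1 and -0.32 with shApela_2 (limma's adjusted p = 0.258 and 0.44). With shApela_1 it passed in 1 of 19 alternatives, the block without the third shApela_2 array (0.0124). With the mean of both hairpins Ddx4 passed in 1 of 18 alternatives, that same block setting (0.0414). In that comparison Mael passed in 3 of 18, after a second quantile normalization (0.0357), with array weights (0.0162) and in that block setting (0.0331). Those 3 fits called 7, 31 and 55 genes in that order.

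The fall of Mael (-0.54, limma's adjusted p = 0.00501) lost its call without the second shApela_1 array (adjusted p = 0.0597). Those of Tdrd12 (-0.59, adjusted p = 0.0331) and Smc1b (-1.01, adjusted p = 0.0494) lost theirs when any 1 of the shLuc arrays was left out, without the first or second shApela_1 array (adjusted p up to 0.168 and 0.255), and without the first shApela_2 array (0.0683 and 0.0975). Tdrd12 also lost it without the second shApela_2 array (0.0656), and Smc1b without the third shApela_1 array (0.119). The 7 trophectoderm markers, of which 3 lay above the median of the table, had a mean between 7.15 and 7.46 on the shApela_1 arrays and between 7.45 and 7.57 on the shApela_2 arrays, against 7.44 to 7.57 in shLuc. The 7 markers of primordial germ cells, of which Ddx4 and Dazl are also germline genes of the list, had a mean between 7.99 and 8.13 in shApela_1 and between 7.95 and 8.19 in shApela_2, against 8.15 to 8.32 in shLuc. The means of the endoderm, mesoderm, neuroectoderm and 2-cell-like markers overlapped those of shLuc with each hairpin. Of the 2-cell-like markers only 3 of 7 were measured, without Zscan4c, Zscan4d, Zscan4f and Tcstv1. Of the mesoderm markers 4 of 5 were measured, without T. The 7 fibroblast feeder markers, of which 6 lay above the median of the table, had a mean between 8.40 and 8.52 in shApela_1. It was between 8.47 and 8.62 in shApela_2, against 8.40 to 8.47 in shLuc. The part of any of these cell types in these values was not tested, and in bulk RNA fewer cells of a type and less RNA per cell cannot be told apart.

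**Figure D4:**
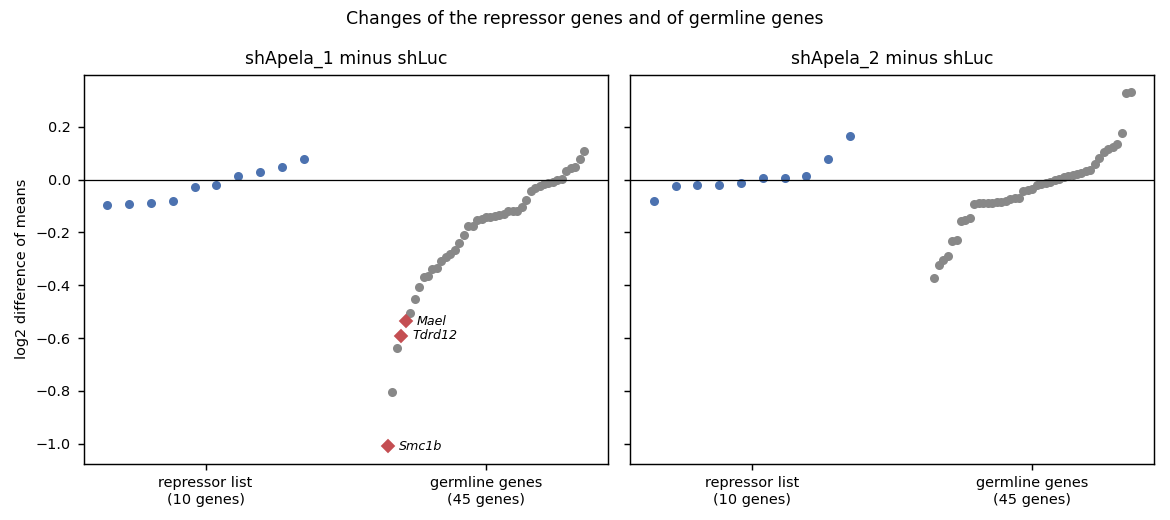
Log2 difference of means for the 10 repressor genes (left in each panel, blue) and 45 germline genes (right, grey), in shApela_1 minus shLuc and shApela_2 minus shLuc, each sorted by value; red diamonds passed at an adjusted p of 0.05. The repressor genes lie between -0.10 and 0.08 with shApela_1, where the germline genes reach -1.01.

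The promoter windows of the 3 germline genes that fell are shown with the same motifs in capitals, since E2F6 and the pair of MGA and MAX read such letters. They are chr15:85131908-85132207, chr1:166238695-166238994 and chr7:35537666-35537965 in GRCm38.p6, all on the minus strand and from RefSeq.
Smc1b: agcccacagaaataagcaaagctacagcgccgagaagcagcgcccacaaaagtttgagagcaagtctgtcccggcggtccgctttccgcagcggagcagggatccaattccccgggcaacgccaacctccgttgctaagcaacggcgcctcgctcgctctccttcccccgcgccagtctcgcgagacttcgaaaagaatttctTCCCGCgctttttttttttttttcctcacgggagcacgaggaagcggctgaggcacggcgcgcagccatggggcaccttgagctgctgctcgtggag
Mael: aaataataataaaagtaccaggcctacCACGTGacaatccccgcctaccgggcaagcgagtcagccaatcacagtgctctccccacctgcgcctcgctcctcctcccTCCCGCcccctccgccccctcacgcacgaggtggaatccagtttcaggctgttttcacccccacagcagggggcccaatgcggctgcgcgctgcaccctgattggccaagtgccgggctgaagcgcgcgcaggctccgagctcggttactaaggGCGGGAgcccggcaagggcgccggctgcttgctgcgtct
Tdrd12: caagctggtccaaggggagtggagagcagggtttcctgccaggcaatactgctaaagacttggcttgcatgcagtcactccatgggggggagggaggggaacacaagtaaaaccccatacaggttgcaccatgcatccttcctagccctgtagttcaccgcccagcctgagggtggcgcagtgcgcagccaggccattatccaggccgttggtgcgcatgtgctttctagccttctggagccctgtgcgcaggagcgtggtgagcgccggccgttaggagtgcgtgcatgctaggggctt
The Smc1b window held the E2F motif at -47 to -42. The Mael window held it at -143 to -138 and, on the opposite strand, at 12 to 17, with an E-box at -223 to -218. The Tdrd12 window held none of the motifs. Among the germline genes with a window, 19 of 38 held the E2F motif and 17 of 38 the E-box. These were 47.8% and 43.5% of their windows, beside 20.0% and 7.15% of all windows. The T-box motif was present for 2 of 38, in 4.35% of their windows and 1.28% of all. The list was chosen by name as the class that the repressors are known to silence, and these shares were not tested.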

How the data were processed

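The deposited table holds log2 expression values of 28853 probe sets, which the authors made with RMA in Partek 6.6, per the submitters' processing notes. Neither the settings nor the log base is stated there; the range of values fits base 2. Scanner intensities were not used here, and precision is limited by the number of arrays (9).

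GEO's platform annotation named 1 gene for 21775 probe sets, and the brightest such probe set stood for each of 19938 genes. Listed genes with no probe set under their symbol alone were not analysed here.

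Tests used limma 3.58.1 in R 4.3.3, with lmFit and eBayes over all arrays (6 residual and 2.72 prior degrees of freedom), two-sided, in 4 comparisons. Adjusted p-values are limma's, after Benjamini-Hochberg over all genes, with a threshold of 0.05. The comparisons against shLuc share its 3 arrays. Levels are set against the median of the table but not between genes, which have different probes.

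Same-numbered arrays deviated together across genes for shApela_2 and shApela_1 (r = 0.18, 0.21 and 0.21) and for shApela_1 and shLuc (0.44, 0.40 and 0.68), and were taken as pairs from the data alone. Those of shApela_2 and shLuc did so at numbers 2 and 3 but not at number 1 (-0.01, 0.67 and 0.47), and were not taken as pairs. The block still fits 1 shift per number across all 3 groups, so its values in every comparison carry that limit, those between the hairpins included. Arrays of different numbers were not correlated for reference.

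The genes named are all members, Apela, those of each list past the threshold (at most 4 per comparison) or else the one with the smallest p, of which the text gives a part, and the 3 most like E2f6 and Pcgf6. Members, lists and rule were chosen with earlier results of these data known. Alternatives covered normalization, the prior, dim genes, array weights, the replicate block and leaving out arrays.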

Additional observations from a re-analysis of the deposited data

Results flagged for a closer look

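The difference between the hairpins, tested directly in limma, passed for 3 of 45 measured germline genes, all higher in shApela_2, where 0.948% of all genes passed and 0.356% as higher. In shApela_2 against shApela_1, Smc1b was higher by 1.34 (adjusted p = 0.0107), Tdrd12 by 0.71 (adjusted p = 0.00865) and Mael by 0.45 (adjusted p = 0.00597), each with 3 of 3 shApela_2 arrays above every shApela_1 array. Without the first or second shApela_1 array the adjusted p was 0.0628 and 0.0663 for Smc1b and 0.0562 and 0.0525 for Tdrd12, and on the compared arrays alone it was 0.0683 for Smc1b. Of the repressor genes 0 of 10 passed in this comparison in limma without the replicate number in the fit, and 1 had an unadjusted p under 0.05. Groups of 3 arrays were not tested for single outlying arrays.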

How the results depend on the processing

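The count of repressor genes called was 0 in every comparison and alternative run, except between the hairpins with the replicate block (1, L3mbtl2) and with the block but without shApela_2 replicate 3 (1, L3mbtl2). Of 750 values of single members under the alternatives, 748 kept their side of the threshold, and 70 had the other sign, none of them called. The block without shApela_2 replicate 3, and the use of arrays numbered 1 and 2 alone, were chosen after seeing the data. The number of genes called with shApela_1 (67) was 37 with an intensity trend and robust prior, 31 with centred array medians, 688 with array weights, 190 with the replicate block, 1376 with the block but without shApela_2 replicate 3, 249 on arrays numbered 1 and 2, 44 on the compared arrays alone, and 3 to 146 with single arrays left out. With shApela_2 (3) it was 7 after a second quantile normalization, 23 with array weights, 8 with the block, 23 with the block but without shApela_2 replicate 3, and 2 to 6 with single arrays left out. With both hairpins (3) it was 7 after a second quantile normalization, 31 with array weights, 2 with the block, 55 with the block but without shApela_2 replicate 3, and 1 to 6 with single arrays left out. Between the hairpins (189) it was 1446 with array weights, 653 with the block, 1200 with the block but without shApela_2 replicate 3, 434 on arrays numbered 1 and 2, 28 on the compared arrays alone, and 19 to 222 with single arrays left out. The cause was not tested. The split with shApela_1, 28 higher and 39 lower, was 10 and 21 with centred medians and 29 and 70 after a second quantile normalization; with shApela_2, 0 and 3 became 1 and 6, and with both hairpins 0 and 3 became 2 and 5, after that normalization. Between the hairpins, 71 higher and 118 lower became 134 and 120 after it and 38 and 125 with centred medians. With shApela_1 Smc1b lost its call with centred medians (adjusted p = 0.0742) and on arrays numbered 1 and 2 (0.053), and Tdrd12 on the compared arrays alone (0.076).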
